A study of Homo sapiens with 5 samples.

Results

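Ribosome biogenesis factors are the proteins that make ribosomes without being part of the finished particle. The 42 factors described here were chosen by name among the protein-coding genes of a gene expression table of DAOY cells, and the rule uses no measured value, although earlier results of these data were known when they were chosen. All 42 were found among the 19797 protein-coding genes and 60504 genes listed. DAOY is an established human cell line of sonic hedgehog (SHH) medulloblastoma, a childhood tumor of the cerebellum. The cells received 20 nM siRNA with a lipid reagent, and total RNA was sequenced 48 h later. The si-NC group (2 libraries) received a non-targeting control siRNA, and the si-circ_63706 group (3 libraries) received siRNA against circ_63706, a circular RNA from the PCNT gene. All libraries came from this single cell line. Which siRNA against circ_63706 each library received is not given in the sources used here, and nothing says that the libraries came from separate cultures, so p-values measure only the spread between these libraries, which may be technical.

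Ribosome production starts in the nucleolus, where RNA polymerase I (Pol I) copies the ribosomal RNA genes into a long precursor. Small nucleolar RNAs (snoRNAs) in box C/D particles then guide ribose methylation of this precursor, and those in box H/ACA particles guide pseudouridylation. Within large assemblies that include helicases and scaffold proteins, the RNA is cut and folded into the small and the large subunit, which leave for the cytoplasm separately. Ribosome production is a major cost of a growing cell, and many of its factors are known targets of MYC, which binds DNA at the E-box.

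Promoter windows are shown first, because the factors held an E-box near the transcription start more often than the tested genes did. Windows of 300 bases, from 250 bases before to 50 after a RefSeq start (GRCh38.p14), were found for 35 of the 42 genes. No window was found for TCOF1, NOP58, NOLC1, RRP12, RRP1B, DDX18 and BOP1. The stretches below hold the last 100 bases before the start and the 30 bases from it, in the direction of the gene, with the E-box in capitals. RRP9, PES1 and FBL, which were lower with si-circ_63706, and GNL3, which was not, all carry an E-box close to the start. CMSS1 and DDX10, also lower, have none in their windows. The whole stretches of PES1 and GNL3 lie inside these genes as GENCODE 29 draws them. Those of RRP9, FBL, CMSS1 and DDX10 reach past the edge of the gene.

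RRP9, chr3:51941875-51942004, minus strand: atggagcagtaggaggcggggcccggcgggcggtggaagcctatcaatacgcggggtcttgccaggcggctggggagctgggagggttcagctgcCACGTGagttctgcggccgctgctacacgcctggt
PES1, chr22:30591881-30592010, minus strand: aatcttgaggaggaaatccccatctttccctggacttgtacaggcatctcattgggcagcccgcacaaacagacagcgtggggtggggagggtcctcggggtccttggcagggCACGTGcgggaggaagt
FBL, chr19:39846350-39846479, minus strand: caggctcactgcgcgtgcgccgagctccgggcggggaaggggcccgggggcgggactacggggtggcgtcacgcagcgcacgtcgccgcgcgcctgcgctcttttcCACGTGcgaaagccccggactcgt
GNL3, chr3:52685932-52686061, plus strand: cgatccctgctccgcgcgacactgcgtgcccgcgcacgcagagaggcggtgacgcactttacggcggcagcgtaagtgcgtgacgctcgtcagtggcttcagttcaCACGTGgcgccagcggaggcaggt
CMSS1, chr3:99817762-99817891, plus strand: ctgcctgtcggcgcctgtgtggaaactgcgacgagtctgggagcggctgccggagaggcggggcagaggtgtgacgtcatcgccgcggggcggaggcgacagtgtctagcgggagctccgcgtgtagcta
DDX10, chr11:108664969-108665098, plus strand: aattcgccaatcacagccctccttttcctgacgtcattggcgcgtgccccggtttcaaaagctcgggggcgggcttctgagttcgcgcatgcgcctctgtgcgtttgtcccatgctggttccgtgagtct

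The E-box, CACGTG on either strand, was present in the windows of 14 of the 35 genes (40%). It was present in 7.26% of all 35116 windows and in 13.1% of the 8831 protein-coding genes that were tested for expression and had a window. The 14 genes were MRTO4, WDR43, RRP9, GNL3, NOP14, GAR1, BYSL, DDX21, NOP2, UTP20, NOP10, FBL, PES1 and UTP14A. They held 15 copies, and 13 of these (86.7%) began within 50 bases of the start, against 39.0% of 1401 copies among the tested protein-coding genes. Copies at or after the first transcribed base made up 60.0% among the factors and 10.1% among the tested genes. The copy of RRP9 began 5 bases before the start base, and those of FBL and GNL3 began 6 bases after it. The ETS core, CCGGAA on either strand, was in 16 windows (45.7%), against 37.1% of the tested genes, and the TATA box, TATAAA on either strand, was in 1 window (2.86%), that of UTP20, against 8.02% of the tested genes. A copy of one motif cannot overlap a copy of another, but ETS cores on opposite strands can overlap each other, as can TATA boxes. A match is a description of the letters, and genes with several windows had more chances of holding one. It does not show a working site, and the match of UTP20 reads TTTATA in the direction of the gene. A window of NPM1 holds TATATATAAG, which the letters TATAAA do not match. The median log2 fold change with si-circ_63706 was -0.20 over the 14 genes with an E-box. It was -0.14 over the factors with a window but no E-box, and -0.16 over all tested genes. The difference was not tested.

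**Figure D1:**
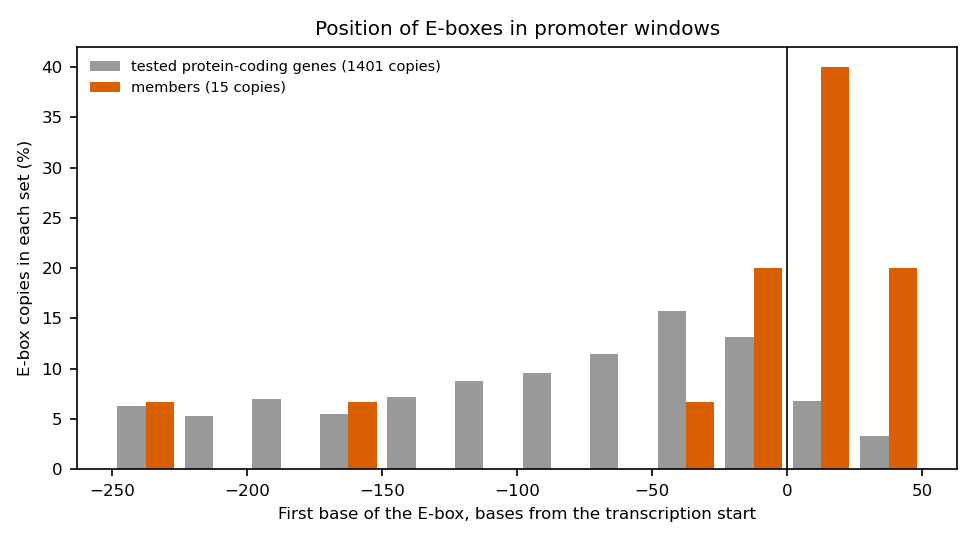
Position of the first base of each E-box relative to the transcription start (x axis, bases), as percent of the copies in each set (y axis), for 15 copies of the ribosome biogenesis factors and 1401 copies of tested protein-coding genes. The copies of the factors gather at the start and in the first transcribed bases, while those of the tested genes spread over the window.

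Expression was given as TPM, the transcripts of a gene per 1000000 transcripts, which corrects for gene length. The depth of the libraries is unknown, because TPM keeps no read counts. The limma test used log2(TPM + 1) values of 12710 genes whose mean reached at least 1 TPM, with Benjamini-Hochberg adjustment over all of them, and all 42 factors were among these. Fold changes are on the log2(TPM + 1) scale, for si-circ_63706 against si-NC. TPM is a share of a constant sum, of which protein-coding genes took 29.02% in each si-NC library but 25.2% to 26.9% with si-circ_63706. The median log2 fold change of all tested genes was -0.16. Values were also taken relative to this general shift, after centring every library on the median log2 ratio of the genes that averaged at least 10 TPM, which raised the median of the tested genes by 0.159. With TPM as deposited 89.5% of the calls among all tested genes were lower, and after centring 50.97%. Less of a transcript per cell and a larger amount of other RNA cannot be told apart here, nor can fewer cells of a type and less RNA per cell.

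The targeted RNA, circ_63706, cannot be read from a table with 1 value per gene. PCNT, its host gene, averaged 10.2 ± 0.297 TPM (SD, n = 2) in the control libraries and 8.11 ± 0.639 TPM (SD, n = 3) after si-circ_63706. With TPM as deposited PCNT was lower (log2 fold change -0.30, adjusted p = 0.0190, limma). After centring it did not pass (-0.14, adjusted p = 0.279, limma). Of 8 SHH medulloblastoma markers, 6 reached a mean of 1 TPM, but GLI1 stayed at 0.29 to 0.49 TPM and ATOH1 at 0 to 0.03 TPM. Of 6 markers of other medulloblastoma subgroups only OTX2 reached 1 TPM, and of 7 markers of blood, endothelial and epithelial cells only CD68. The sum of the last list was 25.4 to 33.2 TPM over the 5 libraries, with PTPRC, HBB, PECAM1, VWF, EPCAM and CDH1 near 0.

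With TPM as deposited, 19 of the 42 factors (45.2%) were lower with si-circ_63706 at an adjusted p under 0.05 (limma), none was higher and 23 did not pass. Among all tested genes 35.4% were lower and 4.16% higher, and among the tested protein-coding genes 37.7% were lower and 4.03% higher. The factors are well expressed, and among genes with a mean of at least 5 TPM the shares were closer, with 44.3% of such genes and 43.9% of the 41 factors in this range lower. The median log2 fold change of the factors was -0.14, against -0.16 for all tested genes. Their values ran from -0.55 for CMSS1 to 0.03 for NOLC1. Of the 42, 39 were negative with TPM as deposited, but 19 after centring. The middle 50% of all tested genes, given below, also lay wholly under 0 with TPM as deposited. All si-circ_63706 libraries lay below both si-NC libraries for 29 factors (69.0%), against 55.2% of the tested genes, and above both for none, against 8.93%. No factor passed a 1.5-fold change, which 3.67% of the tested genes passed downwards. The median of the factors thus lay near that of the tested genes in general. The middle 50% of their log2 fold changes lay between -0.27 and -0.07, and those of all tested genes between -0.30 and -0.02.

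Relative to the general shift, 5 factors (11.9%) were lower and 2 (4.76%) were higher at an adjusted p under 0.05, against 13.7% and 13.1% of the tested genes. The lower factors were CMSS1, RRP9 and DDX10 of the small subunit and BOP1 and PES1 of the large subunit. The higher factors were NOLC1 and GNL3, both listed in the role group of nucleolar scaffold and helicase proteins. The median of the 42 was 0.01 after centring. When TPM was rescaled over protein-coding genes alone, the same 7 factors were called in the same directions, against 18.3% lower and 12.1% higher among 13186 genes. The adjusted p values of the 7 ran from 0.0032 for CMSS1 to 0.0471 for GNL3 after centring (limma). Over protein-coding genes alone they ran from 0.00086 for CMSS1 to 0.024 for GNL3 (limma). After centring DDX10 and GNL3 lay closest to the threshold. When single libraries were left out after centring, 2 to 4 factors were lower and 0 to 1 higher, and of the 7 only CMSS1 passed in all 5 such fits. In these fits 4.60% to 11.9% of all tested genes were lower and 4.93% to 11% higher. There were 2 lower factors without si-NC replicate 1, si-circ_63706 replicate 2 or si-circ_63706 replicate 3, and 3 without si-NC replicate 2, while no factor was higher without si-NC replicate 2 and 1 was higher without each of the other libraries.

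**Figure D2:**
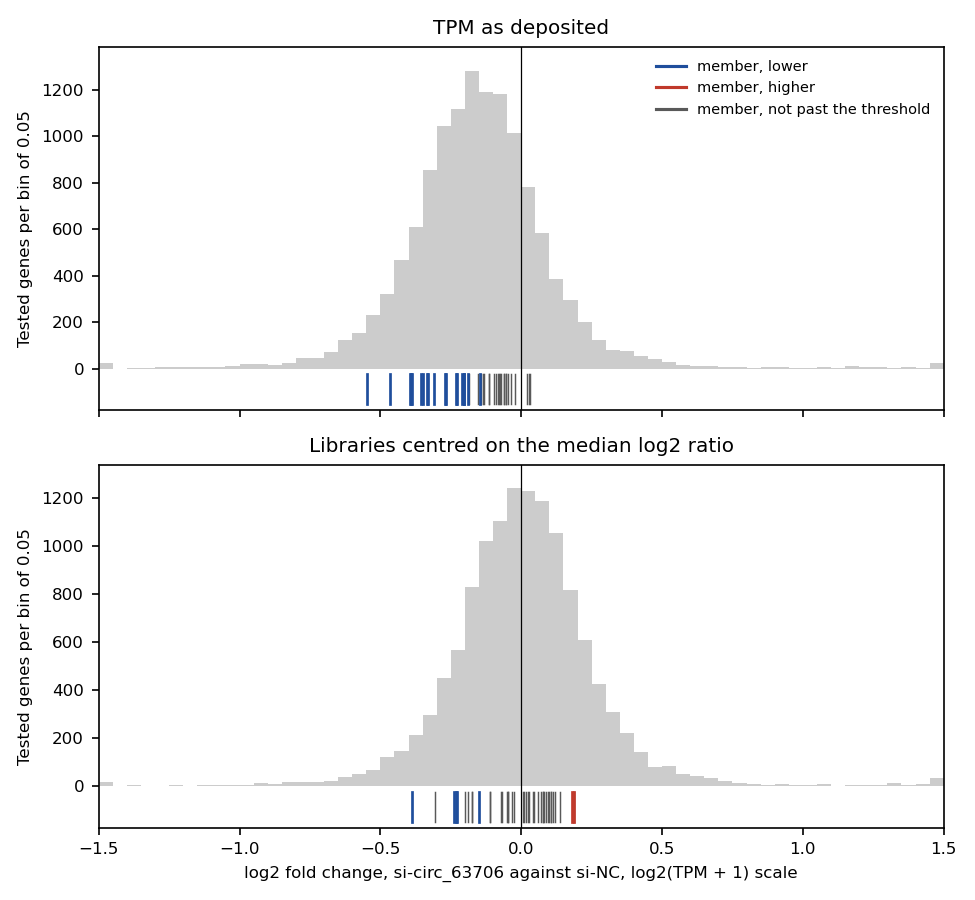
Distribution of the log2 fold change (x axis) over the 12710 tested genes (gray bars, genes per bin, with values beyond 1.5 placed in the last bin), with TPM as deposited (top) and after centring (bottom), and 1 tick per ribosome biogenesis factor. The ticks lie within the bulk of all genes in both panels, with 19 lower in the top panel and 5 lower and 2 higher in the bottom panel.

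In summed TPM the factors made up 2395 and 2455 with si-NC, against 2123, 2155 and 2310 with si-circ_63706. As a share of protein-coding TPM they took 0.825% and 0.846% with si-NC and 0.841%, 0.824% and 0.858% with si-circ_63706, so that the groups overlapped. NPM1 alone supplied 37.4% to 39.8% of the sum. The si-circ_63706 libraries were not alike in this set of genes. Replicate 3 had the highest of the 3 values for 29 of the 42 factors, and the median log2 ratio of the factors to the mean of all libraries was -0.01 in replicate 3, against -0.09 and -0.08 in replicates 1 and 2. The median of all tested genes was also nearest to 0 in replicate 3, at -0.03 against -0.10 and -0.06.

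**Figure D3:**
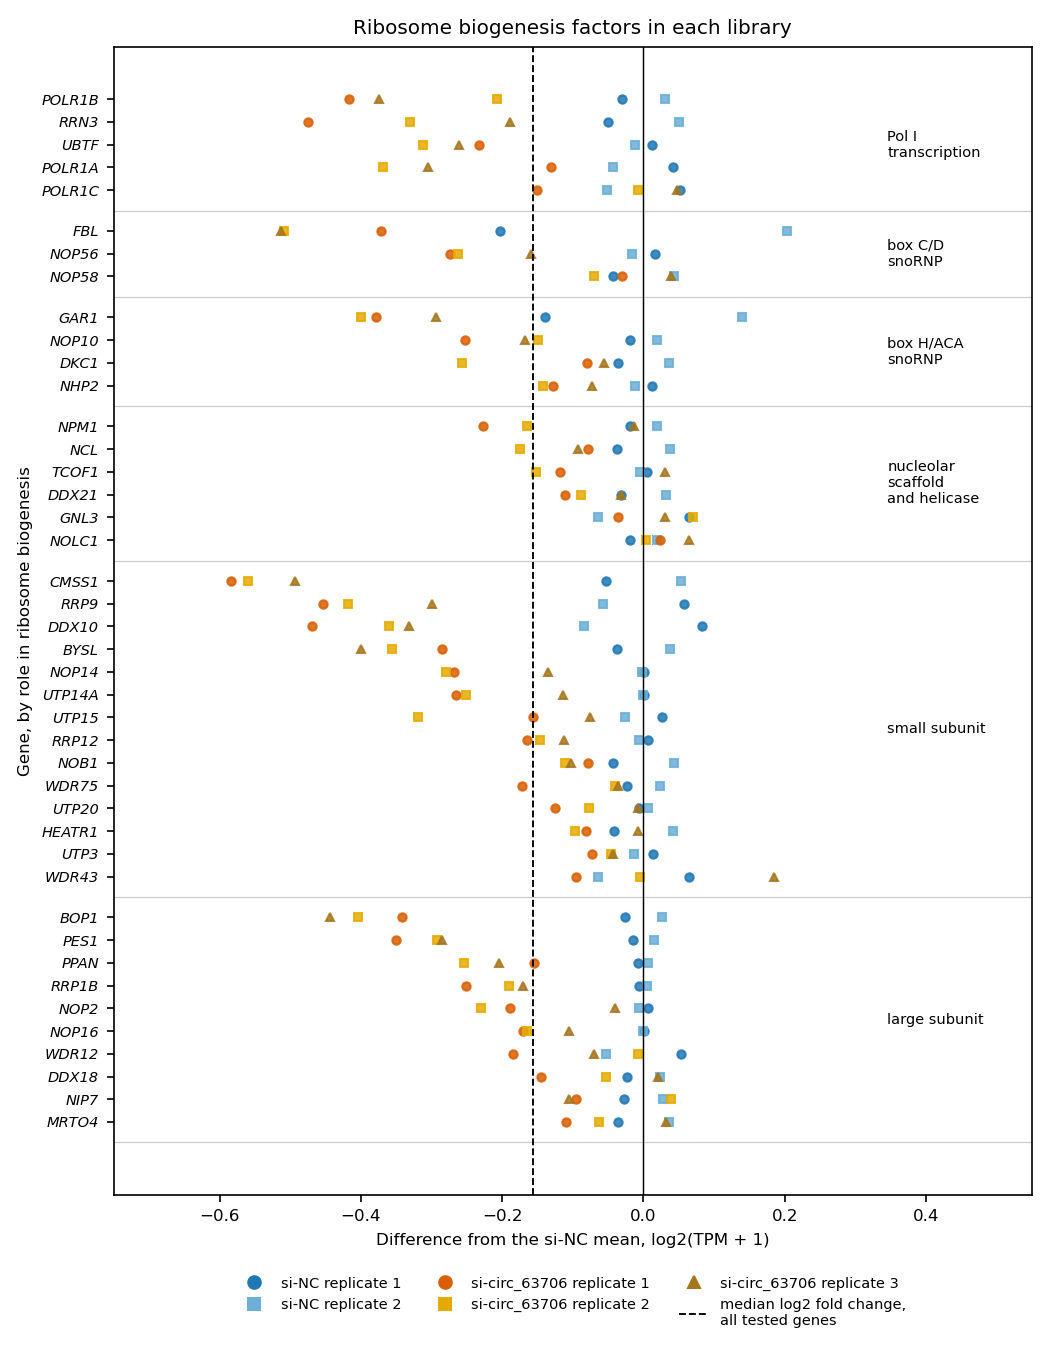
Difference of each library from the si-NC mean (x axis, log2(TPM + 1)) for the 42 factors (y axis), grouped by role and ordered by fold change. Blue symbols are the 2 si-NC libraries, orange and brown symbols the 3 si-circ_63706 libraries, and the dashed line is the median log2 fold change of all tested genes, -0.16.

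Of the 5 Pol I transcription factors and subunits, 4 were lower, with a median log2 fold change of -0.27. The share of lower genes was 35.4% over all tested genes and 44.3% over those of at least 5 TPM, against which the counts of each role group can be read. POLR1B, the second-largest subunit of Pol I, had 17.1 and 17.9 TPM with si-NC, against 12.9, 15.0 and 13.3 with si-circ_63706 (log2 fold change -0.33, SE 0.0731, adjusted p = 0.0142, limma). POLR1C, a subunit that Pol I shares with Pol III, had 19.6 and 18.1 TPM with si-NC, against 16.9, 18.7 and 19.5 TPM with si-circ_63706. The groups were apart for POLR1B and overlapped for POLR1C, whose log2 fold change of -0.04 did not pass. The largest Pol I subunit POLR1A, the initiation factor RRN3 and the architectural factor UBTF were also lower, at -0.27, -0.33 and -0.27. None of the 5 passed after centring, where the median was -0.11. RRN3 has 3 annotated pseudogenes with a summed 2.16 to 2.71 TPM, so part of its reads may be shared with them.

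Of the 3 proteins of the box C/D particle, FBL and NOP56 were lower and NOP58 was not. FBL (fibrillarin), the methyltransferase of the particle, had 52.1 and 69.4 TPM with si-NC, against 46.2, 41.9 and 41.8 TPM with si-circ_63706. The log2 fold change was -0.46 (SE 0.118, adjusted p = 0.0230, limma), the second lowest of the factors, but its si-NC libraries differed by 0.41 on the log2 scale, the widest si-NC gap among the 42. Without any single library it lay from -0.67 to -0.26, and after centring it was -0.31 with an adjusted p of 0.123 (limma). NOP56 and NOP58, the paired scaffold proteins of the particle, gave different results. NOP56 had 94.0 and 91.9 TPM with si-NC, against 76.7, 77.3 and 83.1 with si-circ_63706 (log2 fold change -0.23, adjusted p = 0.0139, limma). NOP58 had 57.0 and 60.6 TPM with si-NC, against 57.6, 56.0 and 60.4 with si-circ_63706 (log2 fold change -0.02, not passed). The difference between these genes was not tested.

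Of the 4 proteins of the box H/ACA particle, GAR1 and NOP10 were lower and DKC1 and NHP2 did not pass. All si-circ_63706 libraries lay below both si-NC libraries for all 4, as for 55.2% of the tested genes. GAR1, a protein that helps release the RNA after modification, had 5.42 and 6.79 TPM with si-NC, against 4.44, 4.36 and 4.77 with si-circ_63706 (log2 fold change -0.36, SE 0.0929, adjusted p = 0.0247, limma). NHP2, an RNA-binding protein of the core, had 96.0 and 94.4 TPM with si-NC, against 87.1, 86.2 and 90.5 TPM with si-circ_63706. Its log2 fold change was -0.11 with an adjusted p of 0.0765 (limma). NOP10 had a log2 fold change of -0.19 and DKC1 (dyskerin), the pseudouridine synthase, of -0.13. The median of the 4 was -0.16, as for all tested genes, and none passed after centring. NHP2 shares 27.4% of its exonic bases with RMND5B on the opposite strand, and whether counting used the strand is not given in the sources used here.

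None of the 6 nucleolar scaffold and helicase proteins was lower, and the median of -0.08 was the highest of the role groups. NPM1 (nucleophosmin), an abundant shell protein of the nucleolus and a histone chaperone, had 917 and 941 TPM with si-NC, against 793, 829 and 920 with si-circ_63706 (log2 fold change -0.14, adjusted p = 0.163, limma). The third si-circ_63706 library lay within the si-NC range. NPM1 has 45 annotated pseudogenes, with a summed 11.2 to 14.9 TPM per library. NOLC1, a chaperone that links snoRNA particles to the Pol I machinery, had 32.3 and 33.3 TPM with si-NC, against 33.3, 32.9 and 34.4 TPM with si-circ_63706. GNL3 (nucleostemin), a GTP-binding protein of proliferating cells, had 66.8 and 61.1 TPM with si-NC, against 62.2, 67.1 and 65.3 TPM with si-circ_63706. For both genes the groups overlapped in TPM, at log2 fold changes of 0.03 and 0.02 that did not pass. Against the general shift NOLC1 was higher by 0.19 (adjusted p = 0.0146, limma) and GNL3 by 0.18 (adjusted p = 0.0471, limma). When single libraries were left out after centring, NOLC1 passed in 3 of 5 fits and GNL3 in 1. NCL (nucleolin), TCOF1 (treacle) and the helicase DDX21 had log2 fold changes of -0.12, -0.08 and -0.08, and none passed.

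Of the 14 small-subunit factors, 6 (42.9%) were lower, against 35.4% of all tested genes and 44.3% of those of at least 5 TPM, and the median log2 fold change was -0.16. CMSS1, a small-subunit factor known from its yeast counterpart, had the lowest value of all 42. It had 21.6 and 23.3 TPM with si-NC, against 14.6, 14.9 and 15.6 TPM with si-circ_63706. Its mean was 22.4 ± 1.22 TPM (SD, n = 2) against 15.0 ± 0.524 TPM (SD, n = 3), or 67.1% of the si-NC mean, a log2 fold change of -0.55 (SE 0.0564, adjusted p = 0.00162, limma) and of -0.39 after centring (adjusted p = 0.0032). CMSS1 lies on chromosome 3 from 99817834 to 100181732 on the plus strand (GRCh38), and FILIP1L, from 99830141 to 100114513 on the minus strand, lies within it. FILIP1L had 10.06 and 11.02 TPM with si-NC, against 23.4, 21.5 and 22.1 with si-circ_63706 (log2 fold change 1.02). These genes thus moved in opposite directions, and in GENCODE 29 they share 0 exonic bases. Whether reads of one entered the value of the other was not tested.

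RRP9, a protein of the U3 snoRNA particle, had 16.1 and 14.8 TPM with si-NC, against 10.99, 11.3 and 12.3 with si-circ_63706 (log2 fold change -0.39, adjusted p = 0.00673, limma). DDX10, a helicase of the early small-subunit precursor, had 11.8 and 10.4 TPM with si-NC, against 7.73, 8.41 and 8.60 TPM with si-circ_63706, also -0.39 (adjusted p = 0.00871, limma). After centring both stood at -0.23, with adjusted p values of 0.0282 and 0.0468 (limma). The groups were apart in both genes, which, like PES1, WDR12 and GNL3, were singled out after their values were seen. BYSL, which acts late in the nucleolus and cytoplasm, was lower at -0.35, and NOP14 and UTP14A at -0.23 and -0.21, but after centring these did not pass. WDR43, a protein of the U3-containing processome, had 51.2 and 46.7 TPM with si-NC, against 45.7, 48.7 and 55.8 TPM with si-circ_63706. It had the highest mean and the highest log2 fold change of the small-subunit factors, 0.03, and its si-circ_63706 values spanned the si-NC range. The remaining factors WDR75, UTP3, UTP15, UTP20, HEATR1, RRP12 and NOB1 had log2 fold changes from -0.18 to -0.05 and did not pass. NOP14 shares 17.1% of its exonic bases with NOP14-AS1 on the opposite strand, which was also lower, at -0.26 (adjusted p = 0.0406, limma). HEATR1 shares 23.2% with LGALS8, which had a log2 fold change of -0.02.

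Of the 10 large-subunit factors, 5 (50%) were lower, against the same shares, with a median of -0.15 over the group. BOP1, PES1 and WDR12 form the PeBoW complex, which is needed to process the precursor of the large-subunit RNA. BOP1 had 18.3 and 19.0 TPM with si-NC, against 14.5, 13.8 and 13.4 with si-circ_63706 (log2 fold change -0.40, SE 0.0529, adjusted p = 0.00302, limma). PES1 had 37.2 and 38.0 TPM with si-NC, against 29.3, 30.5 and 30.7 with si-circ_63706 (log2 fold change -0.31, SE 0.0451, adjusted p = 0.0039, limma). The third member of the complex, WDR12, had 31.6 and 29.3 TPM with si-NC, against 26.7, 30.3 and 28.96 TPM with si-circ_63706. The log2 fold change of -0.09 did not pass. BOP1 and PES1 were thus apart between the groups in every library, while WDR12 overlapped, and the difference between the genes was not tested. After centring BOP1 stood at -0.24 (adjusted p = 0.037, limma), PES1 at -0.15 (adjusted p = 0.0208, limma) and WDR12 at 0.07.

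DDX18, a helicase with the highest mean of the large-subunit factors, had 48.8 and 50.4 TPM with si-NC, against 44.8, 47.8 and 50.4 TPM with si-circ_63706. MRTO4, which holds the place of a ribosomal stalk protein during assembly, had 23.3 and 24.5 TPM with si-NC, against 22.1, 22.8 and 24.5 TPM with si-circ_63706. The groups overlapped in both, at log2 fold changes of -0.06 and -0.05. NOP16, RRP1B and PPAN were lower at -0.15, -0.20 and -0.20, but NOP16 lay at 0.01 after centring, so its direction depended on the scale. NOP2 and NIP7 had log2 fold changes of -0.15 and -0.05 and did not pass. NIP7 shares 20.2% of its exonic bases with COG8 on the opposite strand, which had a log2 fold change of -0.35.

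**Figure D4:**
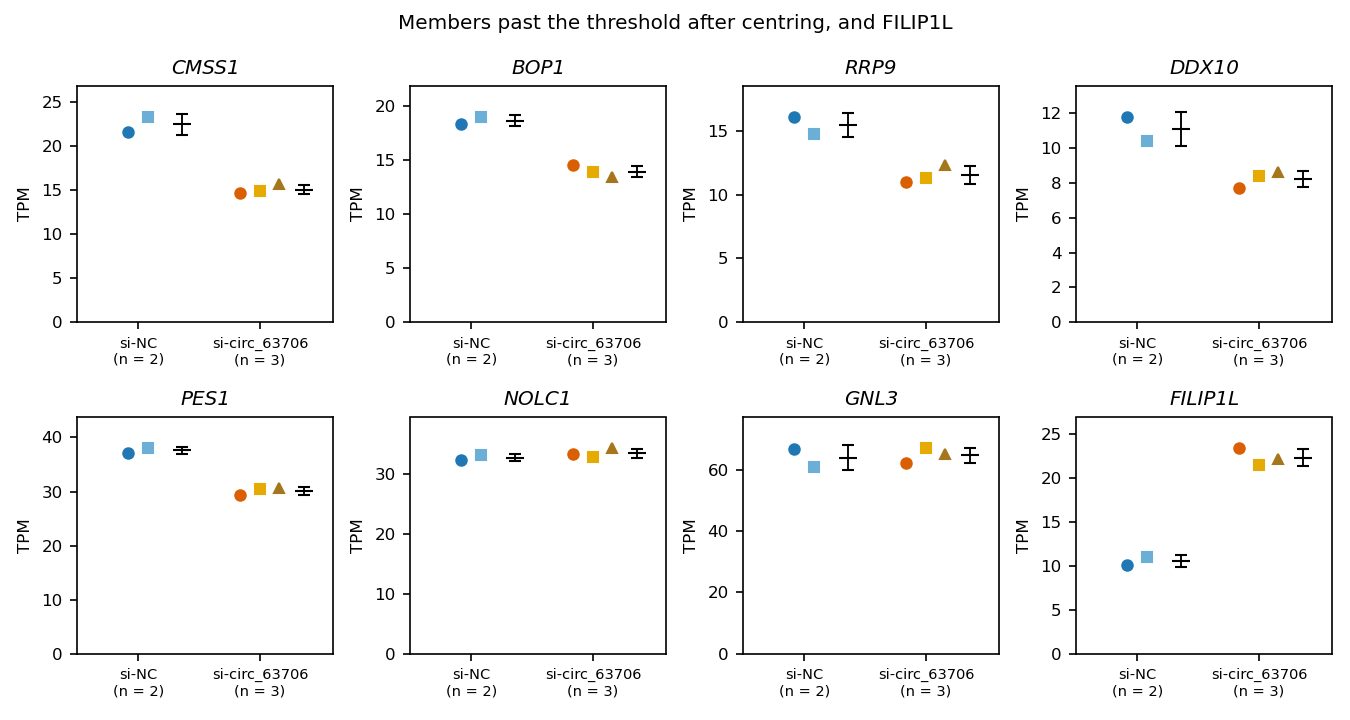
TPM (y axis, from 0) in each library of the 7 factors past the threshold after centring and of FILIP1L, with the group mean and SD in black (si-NC n = 2, si-circ_63706 n = 3). CMSS1, BOP1, RRP9, DDX10 and PES1 are lower in all 3 si-circ_63706 libraries, while NOLC1 and GNL3 overlap between the groups.

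With TPM as deposited, CMSS1, BOP1 and PES1 were the only factors that passed with any single library left out, with adjusted p values of at most 0.0204, 0.0327 and 0.0394 (limma). The share of all tested genes that passed in every such fit is not given here, with or without centring, so these genes cannot be read against it. The count of 19 lower factors depended on the libraries, as did that of all tested genes. It was 6 (14.3%) without si-NC replicate 1, against 14.8% of all tested genes, and 6 without si-NC replicate 2, against 16.3%. It was 9 (21.4%) without si-circ_63706 replicate 2, against 26.0%. With no minimum TPM it was 7 (16.7%), against 6.21% of 41817 genes. That larger set includes genes with a mean under 1 TPM, while every factor averaged at least 4.96 TPM. These 2 shares are therefore of genes unlike in expression and show no excess among the factors.

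A further 120 genes of ribosome biogenesis were listed for comparison, and all were tested. Of these, 54 (45.0%) were lower and none was higher, with a median log2 fold change of -0.17, against 35.4% and 4.16% of all tested genes. Among genes with a mean of at least 5 TPM, 53 of 107 were lower, against 44.3% of all such genes. After centring 21 (17.5%) were lower and 12 (10%) higher, against 13.7% and 13.1% of all tested genes, with a median of -0.01. The lowest log2 fold changes were those of DHX37, a small-subunit helicase (-0.56), NOC2L, a large-subunit factor and histone acetyltransferase inhibitor (-0.51), and NOP9, a small-subunit RNA-binding protein (-0.51). DHX37 had 7.50 and 7.71 TPM with si-NC, against 5.21, 4.75 and 4.61 TPM with si-circ_63706, and NOC2L had 62.6 and 63.5 against 42.4, 45.2 and 44.6 TPM. NOP9 had 4.89 and 5.02 TPM with si-NC, against 3.23, 3.0 and 3.35 TPM with si-circ_63706. All 3 were apart between the groups and were also lower after centring.

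The highest log2 fold changes among the 120 were 0.43 for PWP2, 0.16 for SDAD1 and 0.13 for TAF1D, and none of them passed with TPM as deposited. PWP2, a processome scaffold, had 0.84 and 3.02 TPM with si-NC, against 1.82, 2.87 and 3.5 TPM with si-circ_63706, so that its si-NC libraries differed more than the groups. SDAD1, a large-subunit factor, had 10.62 and 11.01 TPM with si-NC, against 13.0, 11.5 and 12.2 TPM with si-circ_63706. TAF1D, a subunit of the Pol I selectivity factor, had 50.2 and 51.9 TPM with si-NC, against 52.9, 55.6 and 59.7 TPM with si-circ_63706. SDAD1 and TAF1D were higher in every si-circ_63706 library than in both si-NC libraries, and after centring they passed at 0.32 and 0.29. By role, the medians of the other genes were -0.22 for Pol I transcription, -0.21 for snoRNA particles, -0.15 for the small subunit, -0.21 for the large subunit and -0.23 for the exosome and trimming.

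**Figure D5:**
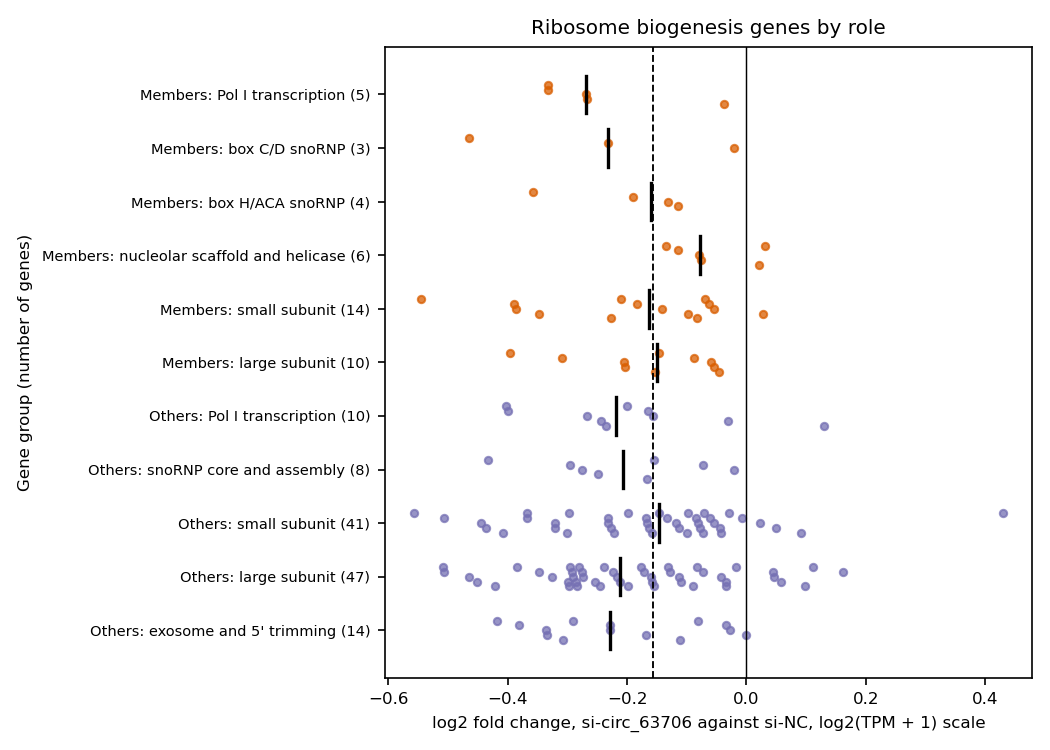
log2 fold change (x axis) of the 42 factors (orange) and the 120 other ribosome biogenesis genes (purple) by role (y axis, number of genes in parentheses), 1 point per gene, with black bars for the group medians and the dashed line for the median of all tested genes, -0.16. The group medians run from -0.27 for the Pol I factors to -0.08 for the nucleolar scaffold and helicase proteins, on both sides of the dashed line.

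Several factors also carry snoRNAs inside their genes, so that 1 gene supplies both a protein and a guide RNA of the pathway. In GENCODE 29, 25 snoRNA genes lie on the same strand inside NOP56, NOP58, DKC1, NCL, GNL3, WDR43 and PPAN. All 21 box C/D genes among them were listed at 0 TPM in every library, and over the whole series 18 of 370 such genes were above 0 in any library. The 4 box H/ACA genes were above 0 in some libraries only. SNORA51, in NOP56, was listed at 3.17 and 3.49 TPM with si-NC, but at 0, 3.43 and 0.78 TPM with si-circ_63706. SNORA36A and SNORA56, in DKC1, and SNORA75, in NCL, were each above 0 in 2 libraries. Some of the 25 snoRNA genes overlap annotated exons of their host, as SNORA51 does with 102 of its 132 bases, while others overlap none. Changes of these guide RNAs alongside their host genes were therefore not readable from this table.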

How the data were processed

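Total RNA of DAOY cells was sequenced in 2 si-NC and 3 si-circ_63706 libraries. The table deposited by the authors gives TPM per gene, rounded to 2 decimals, in which each library sums to 1000000. The submitters' processing notes name cutadapt 2.3, STAR 2.7.0d, RSEM 1.3.1 and hg38. The annotation release and the strand setting of counting are not given in the sources used here. Because the table holds no counts, depth is unknown and no counting intervals were computed.

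The 42 factors, the 120 other genes, the markers and the motifs were chosen with earlier results of these data known. Libraries were grouped by their labels. Genes averaging at least 1 TPM were tested with limma 3.58.1 in R 4.3.3 on log2(TPM + 1), without covariates, with a mean-variance trend (two-sided, Benjamini-Hochberg, threshold 0.05). The procedure was tested on simulated data. Positions, overlaps, pseudogenes and snoRNA genes came from GENCODE 29, which holds 56996 of the listed identifiers, and promoter windows from RefSeq. Python 3.11.15 with pandas 2.3.3 and matplotlib 3.10.9 was used.

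In each role group, library values are given for the factors with the highest mean, the lowest and the highest log2 fold change, and for CMSS1 because FILIP1L overlaps it. Others with library values were picked after their values were seen. Of the 120 genes, the 3 lowest and 3 highest are named. Alternatives were 0.1 as pseudocount, testing without a TPM minimum or with one of 5, centring, quantile normalization, protein-coding genes alone, no trend, a replicate block and leaving out each library. Leaving out a library after centring was added after the data were seen.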

Additional observations from a re-analysis of the deposited data

How the results depend on the processing

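The count of 19 lower factors was 7 with no minimum TPM, 5 after centring, 4 with quantile normalization and 5 over protein-coding genes alone, and none was higher except 2, 1 and 2 under the last 3 settings. The median of the factors was 0.014, 0.0028 and -2.3e-05 under these 3 settings and -0.18 with a replicate block. NOP16 turned from -0.15 to 0.012, 0.028 and 0.0021. For the 120 other genes, 35 were lower with no minimum TPM, and 21, 18 and 27 were lower and 12, 11 and 12 higher under the same 3 settings, with medians of -0.015, -0.013 and -0.058. That median was -0.21 with a pseudocount of 0.1 and -0.21 with a replicate block. With each library left out in turn, 6 to 19 factors were lower and their median ran from -0.18 to -0.12, while 17 to 61 of the other genes were lower with medians from -0.21 to -0.16. After centring, leaving out a library gave 2 to 4 lower and 0 to 1 higher factors. Leaving out a si-NC library leaves a single one, which is assumed to vary like the other group. Whether libraries with the same replicate number share a culture or batch is not stated. Their deviations from the group means correlated at 0.014 and 0.026. These values cannot settle it, because the deviations of the 2 si-NC libraries mirror each other. With the replicate block 15 factors were lower. The share of all tested genes is not given here for the replicate block or quantile normalization, so counts under these settings cannot be read against it. Without si-circ_63706 replicate 1 or replicate 3, 14 and 19 factors were lower, against 29.1% and 33.5% of all tested genes. A pseudocount of 0.1 and a minimum of 5 TPM changed no call of a factor that was tested. Depth is unknown, so how far it limits genes with few reads cannot be stated.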
